A study of Arabidopsis thaliana with 60 samples.

Results

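The transcripts of 9 auxin-induced Aux/IAA genes were followed in stems of Arabidopsis thaliana: IAA1 (AT4G14560), IAA2 (AT3G23030), IAA3, also called SHY2 (AT1G04240), IAA5 (AT1G15580), IAA6 (AT1G52830), IAA14 (AT4G14550), IAA17, also called AXR3 (AT1G04250), IAA19 (AT3G15540) and IAA29 (AT4G32280). They were taken by locus from the 37967 named genes of the count tables. The other 20 Aux/IAA genes listed served for comparison. The study asked how expression of GPT2, a glucose-6-phosphate/phosphate translocator of plastids, relates to lignin. It measured stem RNA by stranded mRNA sequencing in 5 groups of 3 samples, all from plants 9 to 10 weeks old in 0.5 x strength Noren medium. The groups compared with the first wild type Col-0 plants (set 1) are called trial 1 here, together with that set. They are HCT-RNAi, in which the lignin enzyme HCT is silenced, and gpt2-1, a GPT2 mutant by its label. The sample labels name a trial only for the second wild type set. Trial 2 held a second wild type Col-0 set (set 2) and 35S GPT2, which overexpresses GPT2 under the 35S promoter. The sources used here do not say how many independent plant lines or pooled plants each group represents.

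Aux/IAA proteins are short-lived repressors that bind auxin response factors (ARFs) and recruit TOPLESS corepressors. Auxin joins them to the F-box receptors TIR1 and AFB, after which they are degraded and the ARFs are released. Many Aux/IAA genes are themselves switched on by this release, which closes a feedback loop, so their transcripts are commonly used as readouts of auxin response. In stems, auxin moving down from the shoot apex acts on elongation, vascular patterning and cambium growth.

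Total counts per sample were 16591700 to 26129812 in trial 1 and 3827816 to 31713084 in trial 2. Levels are CPM, that is counts scaled to a common library total, after TMM scaling for library composition, and ± is the SD with n = 3. HCT, the silenced gene, fell in HCT-RNAi (log2 fold change -1.34, SE 0.05, edgeR adjusted p = 4.36e-19). GPT2 stood at 1.41, 1.15 and 1.4 CPM in Col-0 set 1 but at 125, 125 and 132 CPM in the libraries labelled gpt2-1, although this label names a mutant. The directions in these libraries are thus those of stems with high GPT2 counts. Counts per gene do not show whether the transcript is whole or makes working protein. GPT2 was also higher in HCT-RNAi, at 5.98 to 9.46 CPM (log2 fold change 2.61, SE 0.17, adjusted p = 2.77e-13). GPT2 stood at 293, 276 and 226 CPM in 35S GPT2 and at 6.82, 1.01 and 1.07 CPM in Col-0 set 2. In 5 tables of trial 2 (Col-0 set 2 samples 1 to 3, 35S GPT2 samples 2 and 3) the counts had to be read in the gene order of the first 35S GPT2 table. In the 201 rows around each member, the lowest Spearman correlation with that table was then 0.932 to 0.969, against at most 0.191 when shifted by 1 row. Xylem, phloem, cambium and epidermis markers were detected in every group, as stem tissue holds them, while the 4 flower markers summed to at most 3.26 CPM and the 5 root markers to at most 1.87 CPM.

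Auxin response factors bind short promoter words, of which TGTCTC and TGTCGG were searched on both strands. The window was the 300 bases before the annotated 5' end of each gene (RefSeq annotation, assembly TAIR10.1). Only 1 window was taken per gene, so other transcript starts of a gene were not searched separately. TGTCTC was present in 5 of the 9 members against 13% of all 27443 promoters of the same length, and TGTCGG in 2 of 9 against 4.91%. The G-box CACGTG, a word bound by PIF light-signalling factors, was present in 1 of 9 (IAA19) against 7.09% of all promoters. None of the 3 words was in the windows of IAA2, IAA14, IAA17 and IAA29, and IAA3 had 1 TGTCTC on the other strand, 273 bases before its start. These matches are a description of the sequence, not of binding. The windows of 5 members are printed below, those of the 4 with a TGTCTC nearest their starts and that of IAA2, the member with the highest level, which holds none of the words. The words do not sort the members by the difference between wild type sets given further on: IAA14, IAA17 and IAA29 were lower in set 2 without a word, as were the 4 with one printed here, and IAA3, with one, did not pass. Capitals mark the words, written as GAGACA or CCGACA where they lie on the other strand, and all windows read along the gene's own strand. The window of IAA1 is chr4:8360696-8360995 on the plus strand, that of IAA2 chr3:8182096-8182395 on the minus strand, that of IAA5 chr1:5366498-5366797 on the minus strand, that of IAA6 chr1:19673653-19673952 on the minus strand and that of IAA19 chr3:5263701-5264000 on the plus strand.
IAA1: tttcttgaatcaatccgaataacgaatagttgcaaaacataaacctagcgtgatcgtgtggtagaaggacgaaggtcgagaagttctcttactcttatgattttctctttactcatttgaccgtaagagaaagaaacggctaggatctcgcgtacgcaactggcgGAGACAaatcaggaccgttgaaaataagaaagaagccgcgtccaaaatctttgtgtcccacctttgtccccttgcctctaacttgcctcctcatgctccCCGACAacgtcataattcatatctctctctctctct
IAA2: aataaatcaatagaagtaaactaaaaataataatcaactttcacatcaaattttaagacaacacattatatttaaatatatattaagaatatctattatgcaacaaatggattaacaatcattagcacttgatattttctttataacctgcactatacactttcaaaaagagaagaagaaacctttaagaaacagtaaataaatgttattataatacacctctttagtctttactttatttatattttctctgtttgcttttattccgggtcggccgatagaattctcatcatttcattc
IAA5: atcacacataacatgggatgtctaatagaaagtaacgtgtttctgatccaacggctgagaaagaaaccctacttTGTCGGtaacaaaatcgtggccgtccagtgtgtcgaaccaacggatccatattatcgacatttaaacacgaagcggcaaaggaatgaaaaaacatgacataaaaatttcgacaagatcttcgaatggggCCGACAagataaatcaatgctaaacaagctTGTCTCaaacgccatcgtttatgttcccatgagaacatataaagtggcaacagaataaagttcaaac
IAA6: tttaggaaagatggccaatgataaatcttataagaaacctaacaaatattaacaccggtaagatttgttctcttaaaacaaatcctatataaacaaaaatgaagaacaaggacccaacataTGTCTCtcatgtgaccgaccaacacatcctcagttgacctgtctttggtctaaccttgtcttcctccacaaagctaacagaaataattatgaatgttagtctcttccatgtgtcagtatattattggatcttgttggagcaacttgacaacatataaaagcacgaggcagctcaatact
IAA19: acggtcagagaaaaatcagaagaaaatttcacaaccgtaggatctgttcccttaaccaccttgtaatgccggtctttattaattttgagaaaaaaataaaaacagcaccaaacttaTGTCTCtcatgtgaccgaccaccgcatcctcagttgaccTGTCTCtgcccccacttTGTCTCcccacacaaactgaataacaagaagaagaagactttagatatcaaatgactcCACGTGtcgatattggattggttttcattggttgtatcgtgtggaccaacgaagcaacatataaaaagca

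IAA6 and IAA19 shared a run of 23 bases around a TGTCTC, starting 181 and 186 bases before their transcripts, whereas the next longest run shared by any other pair of members was 13 bases. The shared run was taTGTCTCtcatgtgaccgacca. IAA19 carried TGTCTC 3 times, 184, 145 and 128 bases before its start, and its G-box lay 70 bases before it. IAA5 carried 1 TGTCTC and 2 TGTCGG, at 67, 226 and 97 bases, and IAA1 carried 1 of each, both on the other strand, at 135 and 36 bases.

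The genes lie on chromosomes 1, 3 and 4 of TAIR10.1, and 3 members or member pairs stand beside a relative that points the other way. IAA14 (chromosome 4, 8347822 to 8350263, minus strand) and IAA1 (8360996 to 8362033, plus strand) are 10733 bases apart. IAA3 (chromosome 1, 1128149 to 1129689, minus strand) and IAA17 (1136078 to 1138663, plus strand) are 6389 bases apart. IAA2 (chromosome 3, 8180646 to 8182095, minus strand) lies 12511 bases from IAA7 (AT3G23050), an Aux/IAA gene outside the 9. IAA19 lies on chromosome 3 (5264001 to 5265695, plus strand) and IAA29 on chromosome 4 (15583332 to 15584903, plus strand). IAA5 (5365512 to 5366497) and IAA6 (19672476 to 19673652) lie on the minus strand of chromosome 1. Exons of the opposite strand cover 39.6% of the exon bases of IAA3 (536 bases, under AT1G04230) and 6.15% of those of IAA5 (48 bases), and none in the other 7 members. This matters because genes under such exons have low counts in Col-0 set 1 and the libraries labelled gpt2-1.

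In wild type stems of set 1 the members spanned a wide range of levels, which are compared between genes per kilobase of exon. IAA2, whose promoter is often used in auxin reporters, was highest at 66.8 ± 3.67 CPM per kb, followed by IAA19 (49.5 ± 2.13), IAA1 (27.6 ± 4.18) and IAA3 (17.9 ± 2.17), and these 4 did not overlap between samples. IAA29 followed at 3.68 ± 0.159 CPM per kb. IAA17 (2.28 ± 0.0896), IAA6 (2.26 ± 0.148), IAA5 (2.13 ± 0.514) and IAA14 (1.55 ± 0.101) came last, and each overlapped its neighbour in this order. IAA2 led in all 5 groups. Its share of the summed level of the 9 genes, per kb, was 38.5% ± 1.4 in Col-0 set 1, 38.5% ± 0.66 in HCT-RNAi, 54.7% ± 0.8 in the libraries labelled gpt2-1, 67.7% ± 2.3 in Col-0 set 2 and 66.8% ± 3.6 in 35S GPT2. The low counts under opposite-strand exons touch IAA3 in Col-0 set 1 and the libraries labelled gpt2-1. Its place in the order and the shares of these groups carry that limit.

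**Figure D1:**
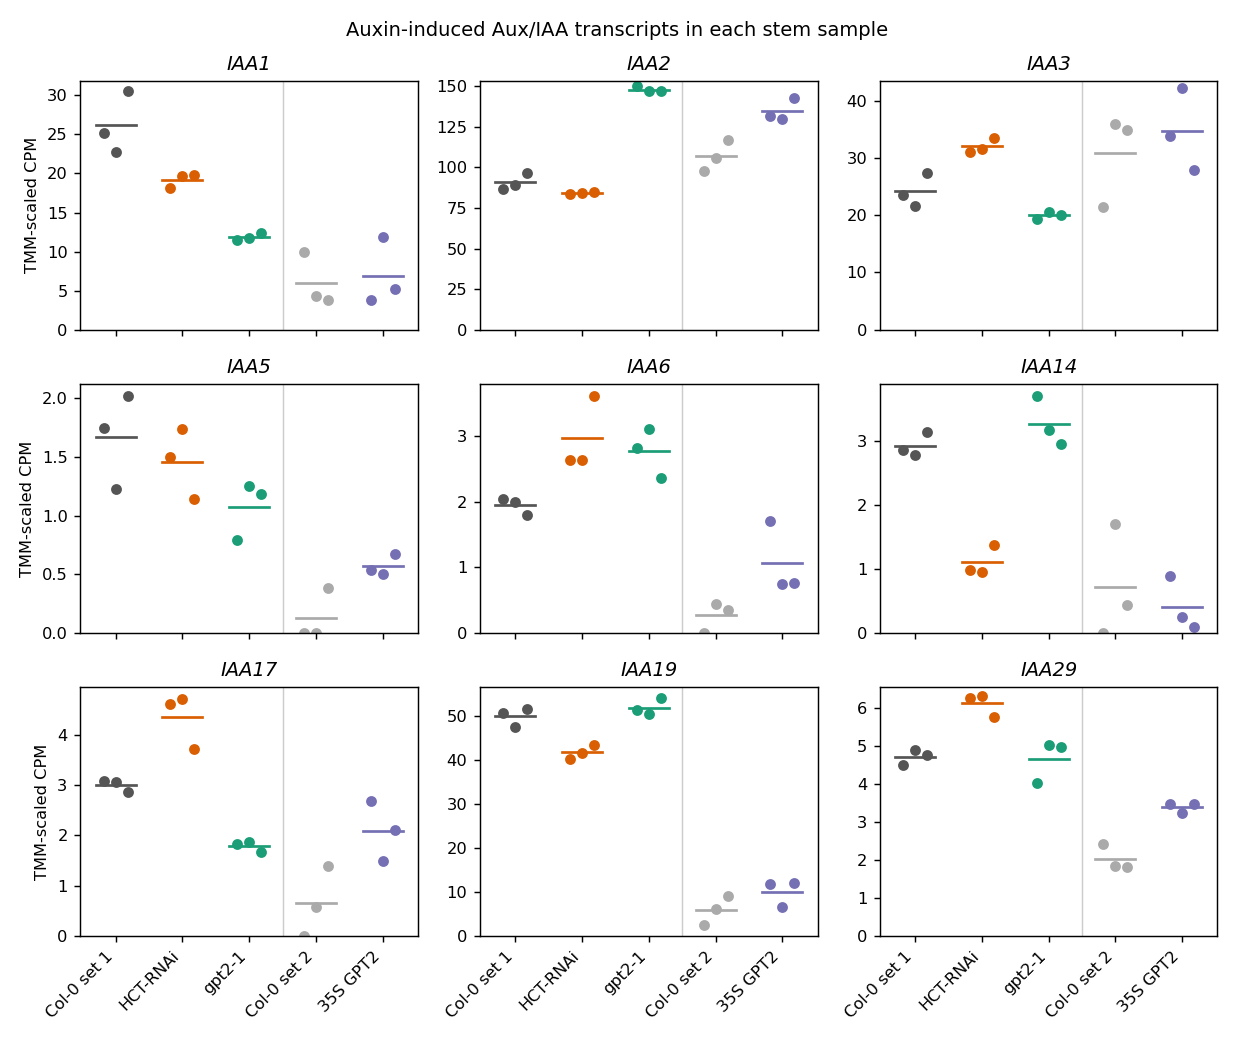
TMM-scaled CPM (vertical axes, linear from 0) of the 9 Aux/IAA genes in each of the 3 samples of every group, with a bar at the group mean; the grey line separates trial 1 from trial 2, which were scaled separately. IAA14 stands at 0.95 to 1.37 CPM in HCT-RNAi against 2.78 to 3.15 CPM in Col-0 set 1, and IAA2 at 147 to 150 CPM in the libraries labelled gpt2-1 against 86.5 to 96.3 CPM.

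Silencing of HCT was compared with Col-0 set 1 to ask what accompanies lowered lignin synthesis. The members moved in both directions: IAA14, IAA1, IAA19 and IAA2 fell, and IAA6, IAA17, IAA3 and IAA29 rose. By edgeR with an adjusted p under 0.05, 8 of 9 passed in either direction, against 55.7% of the 20053 genes tested. The 4 higher stand against 29.2% of all genes, and the 4 lower against 26.5%. The groups did not overlap in 8 of 9 members, against 60.5% of all genes. The median log2 fold change of the 9 was -0.10, beside 0.00 over all genes. In a fit of all 15 samples, 0 were higher and 1 was lower (IAA14, log2 fold change -1.42, adjusted p = 0.0339). That fit called 2929 of all 20645 genes higher and 1797 lower. Fewer cells of a type and less RNA per cell cannot be told apart in whole stems.

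IAA14, whose stabilised form blocks lateral root formation, showed the largest change of the 9 in HCT-RNAi. It stood at 2.87, 2.78 and 3.15 CPM in Col-0 set 1 and at 0.99, 0.95 and 1.37 CPM in HCT-RNAi. Every HCT-RNAi sample lay below every wild type sample. The fold was 2.63 downward (log2 fold change -1.40, SE 0.19, edgeR adjusted p = 6.85e-07). IAA1, an early auxin-induced gene and the neighbour of IAA14, stood at 25.2, 22.8 and 30.5 CPM in Col-0 set 1 and at 18.1, 19.7 and 19.8 CPM in HCT-RNAi, again without overlap. It fell by 0.43 on the log2 scale (SE 0.08, adjusted p = 3.82e-05). IAA19, known for a role in phototropic bending of the hypocotyl, stood at 50.7, 47.6 and 51.7 CPM in wild type and at 40.2, 41.7 and 43.6 CPM in HCT-RNAi. All 3 HCT-RNAi samples were lower, and the log2 fold change was -0.26 (SE 0.05, adjusted p = 0.000119). IAA2 stood at 86.5, 89.5 and 96.3 CPM against 83.9, 84 and 85.1 CPM. The groups stood apart by a narrow margin, with a log2 fold change of -0.10 (SE 0.04, adjusted p = 0.0481). This call was lost when any 1 sample other than Col-0 set 1 replicate 1 was left out (adjusted p = 0.0569 to 0.233).

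Of the members that rose in HCT-RNAi, IAA6, which acts in light-dependent seedling growth, stood at 2.64, 2.64 and 3.61 CPM against 2.04, 1.99 and 1.8 CPM in Col-0 set 1. HCT-RNAi replicate 3 was the highest. The log2 fold change was 0.60 (SE 0.18, adjusted p = 0.00566), and without replicate 3 it was 0.44 and did not pass (adjusted p = 0.0641). IAA17, whose stabilised form makes roots auxin-resistant, stood at 4.62, 4.71 and 3.72 CPM against 3.08, 3.06 and 2.86 CPM, with no overlap. Its log2 fold change was 0.53 (SE 0.14, adjusted p = 0.0028). IAA29, which responds to shade and warmth through PIF factors, stood at 6.27, 6.32 and 5.77 CPM against 4.49, 4.89 and 4.77 CPM. All HCT-RNAi samples were above wild type, with a log2 fold change of 0.38 (SE 0.12, adjusted p = 0.00831).

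IAA3, which balances auxin and cytokinin responses in the root meristem, stood at 31.1, 31.5 and 33.5 CPM in HCT-RNAi against 23.5, 21.7 and 27.4 CPM in Col-0 set 1. The groups did not overlap, and the log2 fold change was 0.42 (SE 0.07, adjusted p = 7.72e-06). In the same comparison, the 666 genes sharing 25 to 50% of their exon bases with the opposite strand had a median log2 fold change of 0.59, and 81.2% of them were above 0. The value of IAA3 lay at percentile 40.7 of these genes, so a change of IAA3 and this counting difference cannot be told apart here. IAA5, which with IAA6 and IAA19 is known from drought responses, stood at 1.5, 1.74 and 1.14 CPM against 1.75, 1.23 and 2.02 CPM. The groups overlapped, and the log2 fold change of -0.17 (SE 0.23, adjusted p = 0.561) did not pass the test. Marker levels also differed in HCT-RNAi, and not in 1 direction. The 3 epidermis markers summed to 491 to 506 CPM against 768 to 808 CPM, mostly CER6, and of these CER6 (-0.69) and ML1 (-0.68) fell and PDF1 rose (1.67). The 3 xylem markers summed to 1110 to 1210 CPM against 1266 to 1397 CPM, with IRX3 (-0.27) and XCP2 (-0.21) lower and XCP1 (0.50) higher, and the 2 cambium markers to 123 to 135 CPM against 103 to 107 CPM. Their part in the Aux/IAA changes was not tested.

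In the libraries labelled gpt2-1, where GPT2 counts were high, IAA2 and IAA6 rose, and IAA1, IAA17 and IAA3 fell. By edgeR, 5 of 9 members passed in either direction, against 53.2% of all genes: 2 higher, against 27.4%, and 3 lower, against 25.8%. Without TMM scaling, 3371 genes were higher and 10286 lower, in place of 5496 and 5181, and the median of all genes moved to -0.23. In a fit of all 15 samples, IAA2 (0.75) and IAA1 (-1.09) passed and the other 7 did not. Of all 20645 genes in that fit, 3213 were higher and 1681 lower. The groups did not overlap in 5 of 9, against 57.1% of all genes, and the median log2 fold change of the 9 was -0.02, beside -0.01 over all genes. IAA2 stood at 150, 147 and 147 CPM against 86.5, 89.5 and 96.3 CPM in Col-0 set 1. All 3 libraries were far above wild type, 1.63-fold (log2 fold change 0.71, SE 0.04, adjusted p = 4.59e-14). IAA1 stood at 11.5, 11.8 and 12.4 CPM against 25.2, 22.8 and 30.5 CPM. It was lower in all 3 libraries, 2.18-fold (log2 fold change -1.12, SE 0.09, adjusted p = 1.18e-11). The ratio of the IAA1 to the IAA2 level, per length, had a range of 0.365 to 0.455 in wild type samples of set 1. It was 0.31 to 0.338 in HCT-RNAi samples and 0.11 to 0.121 in the libraries labelled gpt2-1, so the 3 ranges of trial 1 do not meet. In trial 2 it was 0.0462 to 0.147 in Col-0 set 2 and 0.0409 to 0.131 in 35S GPT2, which overlap each other and hold the range of the libraries labelled gpt2-1. The ratio was formed after both genes were seen to move apart, and is a description.

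IAA17 stood at 1.83, 1.87 and 1.67 CPM in the libraries labelled gpt2-1, all below the 2.86 to 3.08 CPM of wild type (log2 fold change -0.75, SE 0.18, adjusted p = 0.000804). IAA3 stood at 19.3, 20.6 and 20.1 CPM, below the lowest wild type sample at 21.7 CPM (log2 fold change -0.26, SE 0.07, adjusted p = 0.00397). For IAA3 the 25 to 50% overlap class had a median log2 fold change of -0.04 in this comparison, in which both groups have the low counts under opposite-strand exons. IAA6 stood at 2.82, 3.11 and 2.36 CPM, above the 1.8 to 2.04 CPM of wild type (log2 fold change 0.50, SE 0.19, adjusted p = 0.0293). The call of IAA6 was lost when any 1 sample other than gpt2-1 replicate 3 was left out (adjusted p = 0.0501 to 0.127) and in DESeq2 (adjusted p = 0.063).

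The other 4 members overlapped wild type in the libraries labelled gpt2-1 and did not pass the test. IAA5 stood at 0.791, 1.25 and 1.18 CPM against 1.75, 1.23 and 2.02 CPM (log2 fold change -0.61, SE 0.26, adjusted p = 0.0517), and it passed without Col-0 set 1 replicate 2 (-0.81, adjusted p = 0.015). IAA14 stood at 2.95 to 3.71 CPM (log2 fold change 0.17, SE 0.17), IAA19 at 51.4, 50.5 and 54.1 CPM (0.06, SE 0.05) and IAA29 at 4.01, 5.03 and 4.96 CPM (-0.02, SE 0.13). Without TMM scaling IAA19 was at -0.17 and passed as lower (adjusted p = 0.00746), beside the median of -0.23 over all genes, and IAA14 was at -0.06. The 2 cambium markers summed to 55.3 to 65.1 CPM in these libraries against 103 to 107 CPM, and the 3 epidermis markers to 419 to 454 CPM against 768 to 808 CPM. Of the epidermis markers CER6, which makes up most of the sum, fell (-0.92), PDF1 rose (1.43) and ML1 did not pass (-0.10). All 3 xylem markers fell (XCP1 by 0.91, XCP2 by 0.52 and IRX3 by 0.18 on the log2 scale), with sums of 1079 to 1157 CPM against 1266 to 1397 CPM. Their part in the Aux/IAA differences was not tested.

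**Figure D2:**
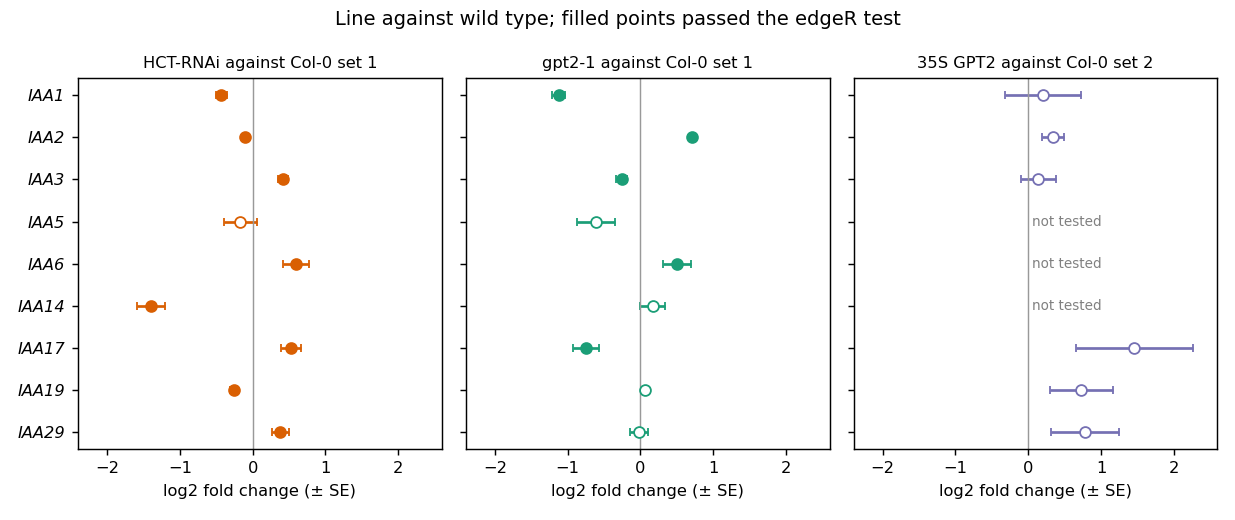
Log2 fold change with its standard error for each of the 9 genes (horizontal axes) in HCT-RNAi and the libraries labelled gpt2-1, each against Col-0 set 1, and in 35S GPT2 against Col-0 set 2. Filled points passed edgeR's test at an adjusted p under 0.05; IAA14 at -1.40 in HCT-RNAi and IAA1 at -1.12 in the libraries labelled gpt2-1 are the lowest, and no point is filled for 35S GPT2, where errors are wider.

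HCT-RNAi and the libraries labelled gpt2-1 share their wild type samples, so their effects were compared directly. By edgeR, 7 of 9 members differed between them, against 68.2% of all genes: 4 were higher in HCT-RNAi, against 35.3%, and 3 lower, against 32.8%. The samples did not overlap in the same count of 7 of 9, against 71.6%. Without TMM scaling, 10706 genes were higher and 4195 lower, in place of 7088 and 6586. In a fit of all 15 samples, 4 members differed, beside 3892 higher and 4593 lower of all 20645 genes. IAA17 was higher in HCT-RNAi by 1.28 on the log2 scale (SE 0.16, adjusted p = 9.04e-08), IAA1 by 0.69 (SE 0.09, adjusted p = 1.48e-07) and IAA3 by 0.68 (SE 0.07, adjusted p = 1.94e-09), the last with the counting difference described above. IAA29 was higher by 0.39 (SE 0.12, adjusted p = 0.00556), a call lost without gpt2-1 replicate 1 (0.29, adjusted p = 0.0542). IAA14 was lower in HCT-RNAi, with a log2 difference of -1.56 (SE 0.19, adjusted p = 5.22e-08), as were IAA2 at -0.81 (SE 0.04, adjusted p = 1.03e-15) and IAA19 at -0.31 (SE 0.05, adjusted p = 4.96e-06). Without TMM scaling IAA19 was at -0.10 and did not pass (adjusted p = 0.0916). IAA5 (0.44, SE 0.26) and IAA6 (0.10, SE 0.17) did not pass.

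In 35S GPT2, the line with GPT2 driven from the 35S promoter, no member passed edgeR's test against Col-0 set 2. Of the 9 members, 6 passed the filter on low counts, and 0 of these passed the test, against 2.52% of the 18364 genes tested (1.4% higher and 1.11% lower). At that share, a count of 0 among 6 does not set the members apart from other genes. At an unadjusted p under 0.05, edgeR counted 1 of 6 (IAA2, p = 0.0431), for which the share over all genes was not counted. With the replicate number as a block, 617 of all genes were higher and 486 lower, in place of 258 and 204, and still 0 of 6 members passed. DESeq2 also called 0 of 6, and a fit of all 15 samples called 3 of 9 as higher (IAA2, IAA6 and IAA29). Of all genes, DESeq2 called 530 higher and 417 lower of 18364, and the fit of 15 samples 1517 and 1359 of 20645. That fit lends the narrower spread of trial 1 to trial 2, so its calls here are liberal. The groups did not overlap in 3 of the 6 (IAA2, IAA17 and IAA29), against 21.4% of all genes. All 6 had a log2 fold change above 0, with a median of 0.53, beside 0.02 over all genes.

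IAA2 stood at 132, 130 and 143 CPM in 35S GPT2 and at 98, 106 and 117 CPM in Col-0 set 2. Every 35S GPT2 sample was above every wild type sample (log2 fold change 0.34, SE 0.15, adjusted p = 0.356). IAA29 stood at 3.48, 3.24 and 3.46 CPM against 2.41, 1.83 and 1.8 CPM, also apart (log2 fold change 0.78, SE 0.47, adjusted p = 0.528). IAA17 stood at 2.68, 1.49 and 2.11 CPM against 0, 0.569 and 1.39 CPM (log2 fold change 1.46, SE 0.81, adjusted p = 0.486). The 0 in Col-0 set 2 replicate 1 allows up to 0.601 CPM (3 counts), and the wild type values spread widely.

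IAA19 stood at 11.7, 6.47 and 12.1 CPM in 35S GPT2 against 2.41, 6.07 and 9.16 CPM (log2 fold change 0.73, SE 0.43, adjusted p = 0.51), with overlap. IAA3 stood at 33.8, 42.3 and 27.9 CPM against 21.5, 36 and 34.9 CPM (0.14, SE 0.24) and IAA1 at 3.75, 11.9 and 5.15 CPM against 10, 4.36 and 3.76 CPM (0.20, SE 0.52). In both genes 35S GPT2 replicate 2 was the highest of its group, and leaving it out turned IAA1 to -0.39 and IAA3 to -0.02. The 3 members below the filter were IAA5 (0.536, 0.498 and 0.675 CPM against 0, 0 and 0.379 CPM), IAA6 (1.7, 0.747 and 0.76 CPM against 0, 0.443 and 0.347 CPM) and IAA14 (0.893, 0.249 and 0.0844 CPM against 0, 1.71 and 0.442 CPM). Each of these had fewer than 10 counts in several libraries. The 3 xylem markers summed to 1391 to 1749 CPM in 35S GPT2 against 862 to 905 CPM in Col-0 set 2, and the part of this in the Aux/IAA values was not tested.

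The effect in 35S GPT2 was set against that in the libraries labelled gpt2-1, both with high GPT2 counts, in 1 fit of all 15 samples. By edgeR, 4 of 9 members had effects that differed, against 22.3% of 20645 genes: 3 with a higher effect in 35S GPT2, against 9.32%, and 1 with a lower one, against 13%. Without TMM scaling, 3277 genes had a higher effect and 1636 a lower one, in place of 1924 and 2683. The effect of 35S GPT2 was above that in the libraries labelled gpt2-1 for IAA17 by 1.99 (SE 0.55, adjusted p = 0.015), for IAA1 by 1.31 (SE 0.44, adjusted p = 0.0418) and for IAA29 by 0.80 (SE 0.28, adjusted p = 0.0459) on the log2 scale. For IAA2 it was below, with a difference of -0.42 (SE 0.12, adjusted p = 0.0169). With the replicate number as a block, IAA1 (adjusted p = 0.0562) and IAA29 (adjusted p = 0.0686) did not pass. The call of IAA2 was lost in 2 of 6 other settings, over which its difference was -0.45 to -0.18. Leaving out 1 sample gave 1 to 4 members. This fit shares 1 spread per gene between the trials. For all 4 members the SE was below that of 35S GPT2 against Col-0 set 2 in the fit of trial 2 alone. There it was 0.81 for IAA17, 0.52 for IAA1, 0.47 for IAA29 and 0.15 for IAA2. The adjusted p-values of these differences thus understate the spread of trial 2, and the calls are liberal.

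In 7 of 9 members the log2 difference between the wild type sets was larger in size than each tested effect of a line on the same gene. By edgeR, these 7 members were lower in set 2, against 31.8% of all genes, and 0 were higher, against 33.6% (65.4% in either direction). At an unadjusted p under 0.05 the count of higher members was 0 in edgeR and 0 in DESeq2. The groups did not overlap in 7 of 9, against 64.8% of all genes. The median log2 difference of the 9 was -1.99, beside 0.03 over all genes. The sets belong to different trials, so line background, growth, library preparation and counting cannot be told apart as sources.

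On a scale common to the 15 samples, IAA19 stood at 52.9, 49.8 and 53.9 CPM in set 1 and at 2.23, 5.68 and 8.57 CPM in set 2. It was 8.19-fold lower in set 2 (log2 difference -3.03, SE 0.23, edgeR adjusted p = 3.4e-09). IAA1 stood at 26.3, 23.8 and 31.8 CPM in set 1 and at 9.28, 4.09 and 3.52 CPM in set 2, and was 5.67-fold lower (log2 difference -2.50, SE 0.30, adjusted p = 1.39e-06). IAA29 stood at 4.68, 5.12 and 4.97 CPM against 2.23, 1.72 and 1.68 CPM, 2.75-fold lower (log2 difference -1.46, SE 0.20, adjusted p = 4.52e-06). In all 3 genes every sample of set 2 lay below every sample of set 1.

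IAA6, IAA5, IAA14 and IAA17 were lower too, and near the limit of detection in part of set 2. IAA6 stood at 2.12, 2.08 and 1.87 CPM in set 1 and at 0, 0.414 and 0.325 CPM in set 2 (log2 difference -2.67, SE 0.42, adjusted p = 2.49e-05). IAA5 stood at 1.82, 1.29 and 2.11 CPM against 0, 0 and 0.354 CPM (-3.10, SE 0.56, adjusted p = 0.00012), so its fitted size rests on the 12 counts of Col-0 set 2 replicate 3. Without that replicate the fit gave -7.95, against libraries at 0 counts, which is no bound. IAA14 stood at 2.99, 2.91 and 3.28 CPM against 0, 1.6 and 0.414 CPM (-1.99, SE 0.52, adjusted p = 0.00286), and leaving out Col-0 set 2 replicate 2 gave -3.19. IAA17 stood at 3.21, 3.2 and 2.98 CPM against 0, 0.533 and 1.3 CPM (-1.90, SE 0.39, adjusted p = 0.000374), and leaving out Col-0 set 2 replicate 3 gave -3.03. All 4 had 0 counts in Col-0 set 2 replicate 1, the wild type library with the fewest counts (5258309), and all 4 passed the test in each repeat without 1 sample.

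IAA2 and IAA3 did not pass the test. IAA2 stood at 90.2, 93.7 and 100 CPM in set 1 and at 90.7, 99.1 and 109 CPM in set 2, overlapping ranges with a log2 difference of 0.08 (SE 0.09, adjusted p = 0.429). IAA3 stood at 24.5, 22.7 and 28.5 CPM against 19.8, 33.7 and 32.7 CPM (0.23, SE 0.16, adjusted p = 0.223), and passed as higher without Col-0 set 2 replicate 1 (0.38, adjusted p = 0.0087). The 704 genes of the 25 to 50% overlap class had a median of 0.86 in this comparison, so the counting difference touches IAA3 again. Of the other Aux/IAA genes, 16 of 20 were tested, with 8 higher and 1 lower in set 2 and a median of 0.27. Over all genes, 33.6% were higher and 31.8% lower. Among genes that inactivate auxin (GH3 and DAO), 1 of 7 was higher and 5 were lower, among PIF factors and shade genes 1 of 8 and 5, among ARFs 5 of 15 and 7, and among receptors and corepressors 3 of 11 and 2. Among transport genes, 1 of 14 was higher and 9 were lower, among synthesis genes 0 of 2 and 1, and among the auxin-induced SAUR, LBD and HAT2 genes 0 of 8 and 3. Of the markers, 2 of 3 xylem and 2 of 3 epidermis genes were lower in set 2 and 2 of 2 cambium genes were higher, and 4 of the 5 root markers were at 0 counts in set 2. Their part in the Aux/IAA differences was not tested.

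**Figure D3:**
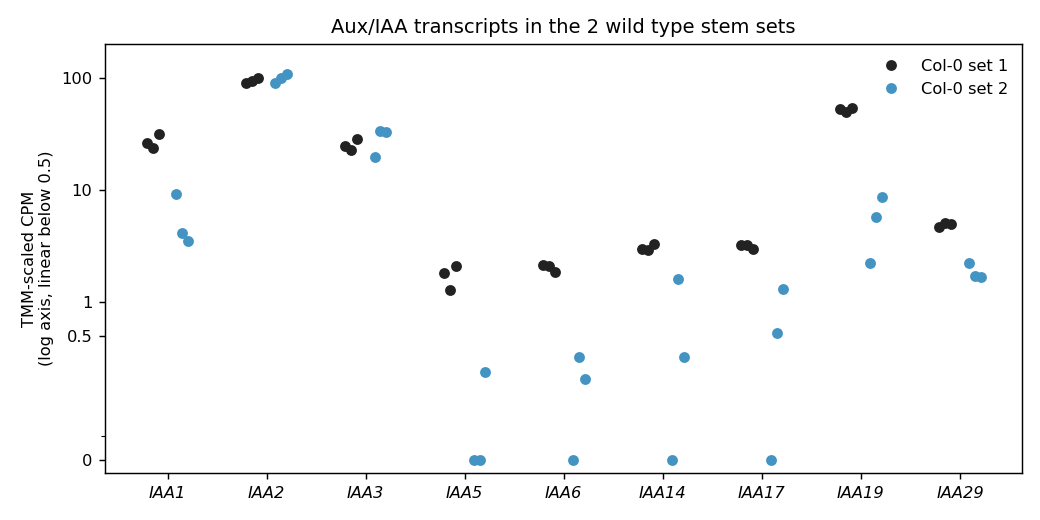
TMM-scaled CPM on the scale common to the 15 samples (vertical axis, logarithmic above 0.5 and linear below) for the 9 genes in the 3 samples of each wild type set. IAA19 stands at 49.8 to 53.9 CPM in set 1 and 2.23 to 8.57 CPM in set 2, while IAA2 overlaps at 90.2 to 100 and 90.7 to 109 CPM.

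Neighbouring genes did not always move alike. IAA1 and IAA14, which point away from each other, both fell in HCT-RNAi (-0.43 and -1.40), while in the libraries labelled gpt2-1 IAA1 fell and IAA14 did not pass the test (-1.12 and 0.17). IAA3 and IAA17 both rose in HCT-RNAi (0.42 and 0.53) and both fell in the libraries labelled gpt2-1 (-0.26 and -0.75), with the limit on IAA3 given above. IAA7, an Aux/IAA gene known from the auxin-resistant axr2 mutant and neighbour of IAA2, fell in HCT-RNAi (-0.38, SE 0.04, adjusted p = 5.93e-09), as IAA2 did (-0.10). With the label gpt2-1, IAA7 fell (-0.26, SE 0.04, adjusted p = 2.76e-06), whereas IAA2 rose (0.71). In 35S GPT2, IAA7 stood at 529 ± 26.9 CPM against 327 ± 15.6 CPM and rose (0.69, SE 0.15, adjusted p = 0.0341).

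The rest of the auxin pathway gives the setting of these changes. Of the other Aux/IAA genes, 15 of 20 were tested in trial 1, and 1 was higher and 10 were lower in each of HCT-RNAi (median -0.30) and the libraries labelled gpt2-1 (median -0.25). Over all genes, 29.2% were higher and 26.5% lower in HCT-RNAi, and 27.4% and 25.8% in the libraries labelled gpt2-1. These comparisons share their wild type samples. In HCT-RNAi, IAA13 (-0.57, SE 0.04) and IAA27 (-0.55, SE 0.05) fell, and IAA10 rose (1.14, SE 0.11). IAA13 shares 35.3% and IAA10 27.6% of its exon bases with the opposite strand, so the counting difference touches both. For the libraries labelled gpt2-1, IAA18 rose (1.45, SE 0.07) from 17.1 ± 1.89 to 46.6 ± 0.365 CPM, and IAA4 (-1.11, SE 0.08), IAA11 (-0.59, SE 0.09) and IAA9 (-0.34, SE 0.04) fell. In 35S GPT2, 16 of 20 were tested and 1, IAA7, rose.

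Among the 15 ARFs listed, from the family that includes the targets of Aux/IAA repression, 1 was higher and 10 were lower in HCT-RNAi. The shares of all genes were 29.2% and 26.5%. ARF19, an activator, fell (-0.66, SE 0.05), as did ARF4 (-0.53, SE 0.04) and ARF2, a growth repressor (-0.28, SE 0.04), and ARF3 rose (0.34, SE 0.06). Of the same ARFs, 5 were higher and 8 lower in the libraries labelled gpt2-1, against 27.4% and 25.8%. ARF18 rose (1.67, SE 0.05) from 23.3 ± 0.928 to 74.4 ± 2.07 CPM and ARF2 rose (0.54, SE 0.04), while ARF10 (-0.75, SE 0.08) and ARF17 (-0.67, SE 0.09), both targets of a microRNA, fell. Of the 11 receptors and corepressors, 2 were higher and 7 lower in HCT-RNAi, and 6 were higher and 5 lower in the libraries labelled gpt2-1, against the same shares of all genes. The receptor gene AFB4 fell in HCT-RNAi (-2.60, SE 0.08; 94.3 ± 3.81 to 15.6 ± 1.08 CPM) and rose in the libraries labelled gpt2-1 (1.11, SE 0.06). AFB5 fell in both (-0.36 and -0.52, SE 0.04 in each). The corepressor gene TPL fell in HCT-RNAi (-0.42, SE 0.04), and its relatives TPR3 (1.06, SE 0.06) and TPR4 (0.39, SE 0.04) rose in the libraries labelled gpt2-1. AFB3 was higher in HCT-RNAi (1.86, SE 0.08). AFB3 shares 31.4% of its exon bases with the opposite strand, and AFB4 17.7%. In the groups with low counts under opposite-strand exons, AFB4 was high and AFB3 low. Mean AFB4 was 94.3 CPM for wild type of set 1 and 204 for the label gpt2-1. It was 15.6 for HCT-RNAi, 21.6 for wild type of set 2 and 24 for 35S GPT2. AFB3 means, in this order, were 8.42, 4.64, 30.6, 79.9 and 73.7 CPM. The part of the counting difference in the HCT-RNAi changes of both genes was not tested.

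**Figure D4:**
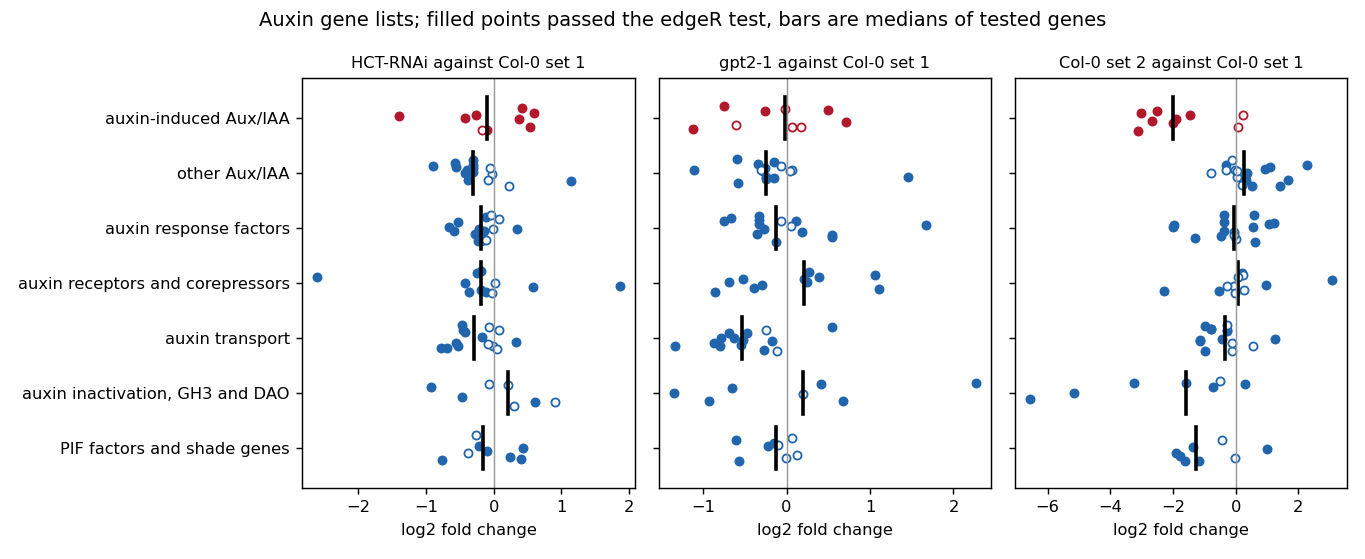
Log2 fold change (horizontal axes) of every tested gene of 7 auxin lists in HCT-RNAi, in the libraries labelled gpt2-1 and in Col-0 set 2, each against Col-0 set 1; the vertical position within a row is spread for legibility. Filled points passed edgeR's test and black bars mark the median of tested genes, which for the 9 auxin-induced Aux/IAA genes (red) is -0.10, -0.02 and -1.99.

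Of 14 auxin transport genes tested in trial 1, 1 was higher and 8 lower in HCT-RNAi, against 29.2% and 26.5% of all genes. In the libraries labelled gpt2-1, 1 was higher and 11 lower, against 27.4% and 25.8%. The same shares over all genes stand behind the counts of synthesis and inactivation genes that follow. The influx carrier genes AUX1 (-0.78, SE 0.05) and LAX1 (-0.69, SE 0.05) and the efflux carrier gene ABCB1 (-0.42, SE 0.04) fell in HCT-RNAi. PIN7 (-1.34, SE 0.07), LAX3 (-0.87, SE 0.06), PIN3 (-0.69, SE 0.05) and ABCB1 (-0.63, SE 0.04) fell in the libraries labelled gpt2-1. Of the 14 genes of auxin synthesis, 2 were tested and TAR2 rose in HCT-RNAi (0.30, SE 0.11) and in the libraries labelled gpt2-1 (0.34, SE 0.12). Of the 7 tested genes that conjugate or oxidise auxin, 1 was higher and 2 lower in HCT-RNAi, namely GH3.6 (0.61, SE 0.16), GH3.5 (-0.47, SE 0.06) and GH3.2 (-0.93, SE 0.36). Of the same 7, 3 were higher and 3 lower in the libraries labelled gpt2-1, among them GH3.1 (2.27, SE 0.41), GH3.3 (0.68, SE 0.14), DAO1 (0.41, SE 0.08) and GH3.5 (-0.65, SE 0.07).

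Among 4 tested genes of the SAUR, LBD and HAT2 list, which like the 9 members are auxin-induced, 0 were higher and 2 lower in HCT-RNAi (29.2% and 26.5% of all genes), and 0 were higher and 3 lower in the libraries labelled gpt2-1 (27.4% and 25.8%). HAT2, a homeodomain gene, fell in both (-0.29, SE 0.06, and -0.75, SE 0.07). SAUR24 was also lower in both (-0.68, SE 0.20, and -1.05, SE 0.22) and SAUR19 in the libraries labelled gpt2-1 (-1.39, SE 0.56), but these belong to a cluster of near-identical copies and their counts depend on how shared reads were split. Of the 8 PIF factors and shade genes, 6 passed in HCT-RNAi, against 55.7% of all genes, 3 higher and 3 lower, with PIF1 (0.43, SE 0.08) and PIF3 (0.41, SE 0.07) higher and PIF4 (-0.21, SE 0.04) and PIL1 (-0.76, SE 0.17) lower. In the libraries labelled gpt2-1, 4 passed, against 53.2%, and all were lower: PIF1 (-0.57, SE 0.09), PIL1 (-0.61, SE 0.18), PIF3 (-0.22, SE 0.07) and PIF4 (-0.15, SE 0.04). In 35S GPT2, 0 of 58 tested genes of the ARF, receptor, synthesis, transport, inactivation, SAUR and PIF lists passed edgeR's test, against 2.52% of all genes. Of the 58, 11 had a log2 fold change above 0, beside a median of 0.02 over all genes. At an unadjusted p under 0.05 there were 16, for which the share over all genes was not counted. DESeq2 called 5 of them (ARF2, LAX3, PIF3, SAUR20 and SAUR21), beside 530 higher and 417 lower of all 18364 genes. With the replicate block edgeR called 4 (ARF2, ARF4, LAX3 and PIF3), beside 617 higher and 486 lower. These genes were listed after their values were seen.

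The genes most like the leading members were sought among 10586 genes of at least 5 CPM, by the root mean square difference of log2 levels over the 15 samples, each centred on its own wild type set. For IAA2 these were RHA1, a Rab GTPase gene (0.08), CRT3, a calreticulin gene (0.09), and AT3G14840 (0.10). For IAA14 they were AAH, an allantoate amidohydrolase gene (0.38), TPPE, a trehalose phosphatase gene (0.38), and AT2G41250 (0.40). The larger differences for IAA14 go with its low counts.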

How the data were processed

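Stem RNA of 15 samples was measured, 3 in each of 5 groups. The 60 records hold 4 per sample that share 1 table and were counted as 1 sample. The authors deposited raw counts per gene. The submitters' processing notes name STAR, DESeq2 and TAIR10. Counting tool, strand setting and annotation were not given in the sources used here. Of 38186 rows per table, the 219 that name no gene (at most 0.00117% of counts) were left out. The counts of 5 tables were read in the row order of the first 35S GPT2 table, after which their Spearman correlation with Col-0 set 1 replicate 1 was 0.884 to 0.925 (0.097 to 0.108 as deposited). PGD1, whose re-paired row holds values of another gene, was left out of fits with trial 2.

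Groups were compared with edgeR 4.0.16 (R 4.3.3, limma 3.58.1): quasi-likelihood F test, TMM scaling, filterByExpr, Benjamini-Hochberg adjustment over all genes tested, threshold 0.05, with 1 fit per trial and 1 of all 15 samples for comparisons between trials. DESeq2 1.42.0, other scalings and filters, the replicate block, genes without overlap and leaving out each sample were alternatives. The script was tested on simulated data. The replicate numbers pair the samples of trial 2 by their deviations from the group means (same-number correlations 0.214 to 0.417), but not those of trial 1 (-0.084 to 0.016); the labels do not say what the numbers mark. Replicates of a group all differed beyond sampling noise. Chi-square over degrees of freedom was 1.95 to 5.34 in trial 1 and 10.2 to 33.4 in trial 2. The number of plants per sample is not given, so p-values measure the spread between these samples. Limits from 0 counts cover counting error only.

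The members and lists were chosen with earlier results of these data known. Genes named are the 9 members, HCT, GPT2, up to 4 passing genes with the smallest p per list and comparison, the neighbour IAA7, and the 3 genes most like the member with the smallest p of each comparison. A transport gene that this rule names is not reported here. Exons, coordinates and promoter sequences come from the RefSeq annotation of TAIR10.1, in which all 37967 identifiers were found. The edgeR adjusted p of every listed gene named without one was under 0.05.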

Additional observations from a re-analysis of the deposited data

Results flagged for a closer look

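In 4 members the effect in 35S GPT2 differed from that in the libraries labelled gpt2-1, by the interaction term of an edgeR fit of 15 samples. IAA17 had an effect in 35S GPT2 that was above the effect in the libraries labelled gpt2-1 by 1.99 on the log2 scale (SE 0.55, adjusted p = 0.015). For IAA1 the difference was 1.31 (SE 0.44, adjusted p = 0.0418), from 0.20 in 35S GPT2 and -1.12 in the libraries labelled gpt2-1. For IAA29 it was 0.80 (SE 0.28, adjusted p = 0.0459). For IAA2, which was above its wild type in all 3 libraries of each group, it was -0.42 (SE 0.12, adjusted p = 0.0169). Leaving out each of the 12 samples concerned in turn kept IAA17 past the threshold in 11, IAA2 in 9, IAA1 in 3 and IAA29 in 2. The library that ended the call of IAA17 was 35S GPT2 replicate 1 (1.78, adjusted p = 0.0584). With the replicate number as a block, IAA17 and IAA2 passed, and IAA1 (adjusted p = 0.0562) and IAA29 (adjusted p = 0.0686) did not. Over 6 other settings, the block among them, the IAA2 difference was -0.45 to -0.18 and its call was lost in 2. Without TMM scaling, the median of this difference over all genes moved from -0.038 to 0.189. For these differences, line and trial cannot be told apart. The shared fit lends the narrower spread of trial 1 to trial 2, so these adjusted p-values are liberal.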

How the results depend on the processing

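Of 720 values of single members under alternatives, 635 kept their direction and side of the threshold, 61 lost the call, 9 gained one and 15 turned direction. The fit of all 15 samples shares 1 spread per gene between the trials, wide for trial 1 and narrow for trial 2. In that fit HCT-RNAi had 0 members higher and 1 lower, and the libraries labelled gpt2-1 had 1 higher and 1 lower. There 35S GPT2 had 3 higher, and HCT-RNAi differed from the libraries labelled gpt2-1 in 4. The counts over all genes in that fit are given with each comparison above. For the libraries labelled gpt2-1, the count of higher members was 1 without TMM and 1 in DESeq2, the count of lower members was 5 without TMM, and leaving out 1 sample gave 1 to 2 higher. The members whose effects differed between 35S GPT2 and the libraries labelled gpt2-1 numbered 2 without a filter, 2 with the replicate block and 1 to 4 when 1 sample was left out. The block changed no other call of a member in any comparison except that of IAA2 in HCT-RNAi (adjusted p = 0.062). The difference between wild type sets was called in 6 to 8 members under every alternative run.

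Direction turned only for values that had not passed the test in the fit reported. In the libraries labelled gpt2-1 without TMM, IAA14 was -0.06 and IAA19 -0.17, and IAA29 was 0.03 in the fit of 15 samples and -0.07 to 0.08 (0.01 and 0.08 among them) leaving out 1 sample. In 35S GPT2, leaving out 1 sample gave -0.39 to 0.65 for IAA1 (-0.07 and -0.39 among them) and -0.06 to 0.27 for IAA3 (-0.06 and -0.02). With rows as deposited IAA1 was -0.53, IAA17 -0.27 and IAA29 -0.48. Leaving out 1 sample also gave -0.06 to 0.20 for IAA6 between HCT-RNAi and the libraries labelled gpt2-1, -2.81 to 0.08 for IAA14 in the difference of effects and -0.04 to 0.12 for IAA2 between wild type sets. The causes were not tested. Restricting the fit of trial 2 to the groups compared is the same fit. Depth limits IAA5, IAA6, IAA14 and IAA17 in trial 2, where Col-0 set 2 replicate 1 held 0 counts of each.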

Other observations

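The list of SAUR, LBD and HAT2 genes, auxin-induced like the 9 members, was compared between 35S GPT2 and the libraries labelled gpt2-1. In 35S GPT2, 6 of 13 were tested against Col-0 set 2, and 0 passed edgeR's test in either direction, against 2.52% of all genes. There were 3 at an unadjusted p under 0.05 in edgeR, for which the share over all genes was not counted. In DESeq2, 2 passed (SAUR20 and SAUR21), beside 530 higher and 417 lower of all 18364 genes. The groups did not overlap in 4, against 21.4% of all genes, and the median log2 fold change was 1.60. In the libraries labelled gpt2-1, 4 were tested against Col-0 set 1, with a median of -0.90 over these 4, which are among the 6. In trial 2 HAT2 stood at 34.5 ± 3.83 CPM in 35S GPT2 against 33.8 ± 10.2 CPM, and the other 5 tested genes had group means of at most 4.46 CPM. The difference between these effects passed the test in 7 of 8 tested genes, all higher in 35S GPT2, against 9.32% of all genes, with a median of 3.12. SAUR20 stood at 0.996 to 1.96 CPM in 35S GPT2 and at most 0.416 CPM in the other groups, and SAUR21 at 1.1 to 1.99 against at most 0.374. Such genes passed the filter on low counts through 35S GPT2, the group where they are high. The count of genes passing, their direction and the medians are thus in part set by the filter, and are a description only. The size of the median difference also rests in part on few counts. Summed over the 3 libraries of a group, SAUR21 had 6 counts in Col-0 set 2 and 6 in the libraries labelled gpt2-1. SAUR20 had 10 and 16. Line and trial cannot be told apart in this difference, and the shared fit understates the spread of trial 2. Most of these genes are SAURs of 1 cluster of near-identical copies, whose counts depend on how shared reads were split, and they are not independent of each other.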
